A study of Mus musculus with 34 samples.

Results

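The genes through which macrophages detect bacterial lipopolysaccharide (LPS), together with close relatives of the LPS receptor, were followed across an experiment on mouse macrophages. The 8 genes were Cd14, Tlr2, Tlr4, Tlr6, Ly96, Ly86, Cd180 and Myd88, and members were the probe sets listed under one of these symbols in the platform's probe-to-gene table. Of the 8 genes, 5 had a listed probe set, 1 each: Cd14, Tlr6, Myd88, Ly86 and Cd180. Cd14 lies on chromosome 18, Tlr6 on 5, Myd88 on 9, and Ly86 and Cd180 on 13 (GRCm38.p6). All 5 passed the filter on low signal and stood among the 8224 probe sets tested, which represent 6070 genes. No probe set was listed under Tlr2, Tlr4 or Ly96 in the table used here, so these 3 genes were not analysed here.

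CD14 is a surface protein that binds LPS and hands it to the complex of TLR4 with MD-2, the product of Ly96. The adaptor MyD88 carries the signal of TLR4, of most other Toll-like receptors and of the IL-1 receptor towards NF-kappaB and the MAP kinases. TLR6 pairs with TLR2 to detect diacylated lipopeptides. Cd180 encodes RP105, a relative of TLR4 that lacks its signalling domain, and Ly86 encodes MD-1, the partner that RP105 needs at the cell surface. IL-10 and IL-6 both activate STAT3, and IL-10 restrains the inflammatory output of macrophages.

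Macrophages were grown from bone marrow for 7 days and rested for 1 hr, and their RNA was measured on 34 Affymetrix arrays, of which 32 fell into 16 groups. IL-10-/- cells, IL-6-/- cells and wild-type (WT) cells each received LPS at 100 ng/ml with IL-10 at 10 ng/ml, or LPS alone, for 45 or 180 min. Each genotype also received LPS with IL-6 at 2 ng/ml, for 45 min. Every stimulated group held 2 arrays, except IL-6-/- cells with LPS alone, where each time rests on 1 array. Resting cells had 4 arrays. The genotype of the resting cells is not stated. Their CSF-1 source is given as L-cell conditioned medium and that of the stimulated cells as mCSF, so medium and LPS cannot be told apart in any comparison with resting cells. The labels state neither strain, sex nor age of the mice, nor how the knockouts were made. The titles call the arrays biological replicates without saying how many mice they stand for, so p-values measure the spread between arrays. A description field that speaks of embryos goes against the titles and sources of all samples and was not used.

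Values are MAS5 signals on a linear scale, which the authors had scaled to the same trimmed mean of about 500 on every array. Marker ranges here cover the 32 arrays in a group. All 12 macrophage markers checked were on the array and passed the filter, and Csf1r, the CSF-1 receptor gene, gave 13156 to 33289. Of 6 T cell markers on the array, Cd3e, Cd3g, Cd3d, Cd8a and Thy1 stayed at or below 117.1, and Cd4, the only one to pass the filter, gave 270.8 to 767.5. The Il10 probe set gave 1511.8 to 10596 in IL-10-/- cells, against 2412.5 to 4512.1 in WT cells, and the Il6 probe set gave 427.5 to 8400.2 in IL-6-/- cells, against 209 to 4567.8 in WT cells. Both probe sets thus gave signal in their own knockout; their position within each gene is not stated, so they check neither genotype.

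Stretches around the transcription start sites are shown for Myd88, whose signal changed with the added cytokines, and for Tlr6 and Ly86, whose signals moved in opposite directions between 45 and 180 min. They come from RefSeq on build GRCm38.p6, run from 250 bases before to 50 bases after the start, and are written 5′ to 3′ along the gene's strand. Myd88 lies on chr9:119339969-119340268 (minus strand). Tlr6 has a first start site on chr5:64959117-64959416 and a second on chr5:64959999-64960298 (minus strand), numbered by coordinate and not along the gene. Both lie inside the gene's span of 64953092 to 64970942, so neither is at its 5′ end. Ly86 lies on chr13:37345095-37345394 (plus strand). Capitals mark matches to TTCNNNGAA, a spacing bound by STAT dimers, or to the core of the interferon-stimulated response element, GAAA followed by GAAA after 2 bases of any kind.
Myd88: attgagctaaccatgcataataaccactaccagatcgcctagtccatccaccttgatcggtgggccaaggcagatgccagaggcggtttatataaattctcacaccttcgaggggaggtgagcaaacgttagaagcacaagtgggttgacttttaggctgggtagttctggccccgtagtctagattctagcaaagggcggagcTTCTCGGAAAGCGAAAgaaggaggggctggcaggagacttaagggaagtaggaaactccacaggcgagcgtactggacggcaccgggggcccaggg
Tlr6, first start site: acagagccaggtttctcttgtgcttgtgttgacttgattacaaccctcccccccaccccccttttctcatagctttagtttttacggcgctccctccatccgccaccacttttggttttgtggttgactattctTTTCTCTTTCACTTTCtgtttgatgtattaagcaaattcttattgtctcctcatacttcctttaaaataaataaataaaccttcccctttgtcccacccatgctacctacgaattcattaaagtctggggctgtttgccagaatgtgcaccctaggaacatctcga
Tlr6, second start site: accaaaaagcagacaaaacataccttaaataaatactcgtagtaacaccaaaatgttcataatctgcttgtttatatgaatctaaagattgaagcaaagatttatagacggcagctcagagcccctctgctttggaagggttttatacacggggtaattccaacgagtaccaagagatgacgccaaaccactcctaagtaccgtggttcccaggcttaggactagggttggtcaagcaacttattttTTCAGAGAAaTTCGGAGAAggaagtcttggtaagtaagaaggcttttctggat
Ly86: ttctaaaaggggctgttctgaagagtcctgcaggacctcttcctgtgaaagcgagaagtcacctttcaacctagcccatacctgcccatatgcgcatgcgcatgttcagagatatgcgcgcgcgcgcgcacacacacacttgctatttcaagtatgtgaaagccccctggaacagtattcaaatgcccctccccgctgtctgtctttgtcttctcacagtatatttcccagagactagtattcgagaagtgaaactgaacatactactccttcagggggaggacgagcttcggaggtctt
Of the 5 measured members, 4 had such a stretch in the table used here. Both strands were searched for these 2 motifs, for the NF-kappaB consensus and for GAGGAA, a core bound by PU.1, and the motifs were chosen with the values of the genes known. In Myd88 a TTCNNNGAA match at -46 to -38 and an interferon element match at -40 to -31 shared 3 bases, an overlap found in 24 of 32841 such stretches (0.0731%). The overlap was looked at for Myd88 with its values known, so this share is a description and no test. Taken singly, TTCNNNGAA was present in 8.3% of all stretches, the interferon element core in 3.44%, the NF-kappaB consensus in 8.46% and GAGGAA in 28.3%. The first Tlr6 stretch held a pair of overlapping interferon element matches on the opposite strand, at -116 to -107 and -110 to -101. The second held TTCNNNGAA matches at -3 to 6 and 8 to 16. The Ly86 stretch and both overlapping stretches of Cd180 held no match to the 4 motifs. A match describes letters only.

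Against resting cells, WT cells with LPS had more Cd14 and Myd88 and less Ly86 and Cd180 signal by 180 min, and Tlr6 had a low point at 45 min. After 180 min 4 of the 5 genes passed the test against resting cells, where 33.8% of all probe sets passed: 2 were higher (14.4% of all probe sets) and 2 lower (19.4%). After 45 min 3 of 5 passed, against 16.7% of all probe sets: 1 was higher (9%) and 2 lower (7.75%). Changes are differences of log2(signal + 50), a scale that understates the change of dim genes, and a gene passed when its limma p, adjusted by Benjamini-Hochberg over all 8224 probe sets, was under 0.05.

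**Figure D1:**
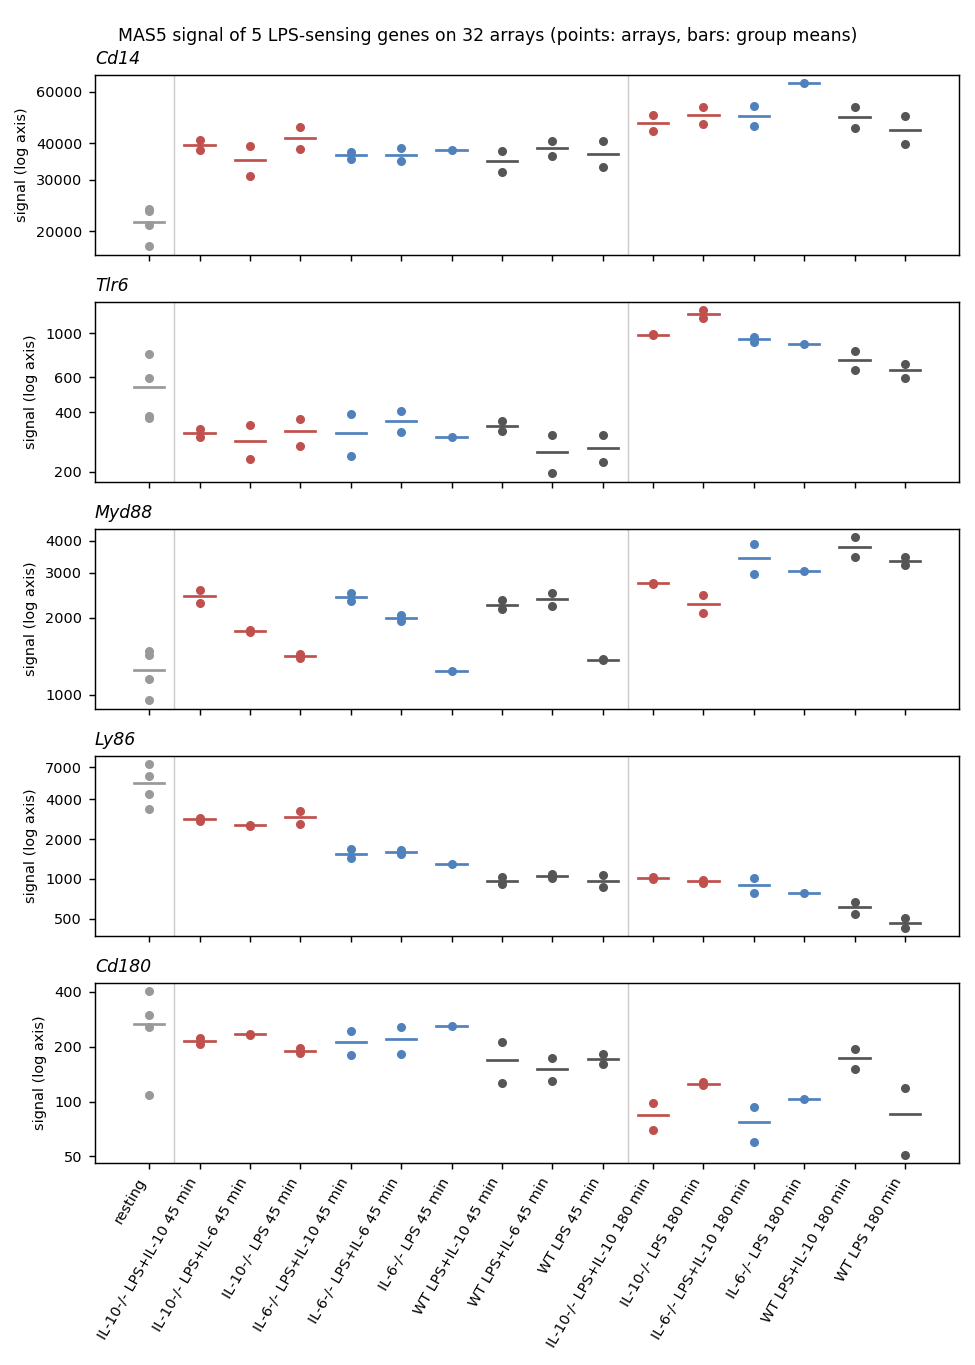
Signal of the 5 genes on 32 arrays, on log axes. Points are arrays and bars are group means, with resting cells at the left, the 45 min groups in the middle and the 180 min groups at the right. Every stimulated array lies above every resting array for Cd14 and below every resting array for Ly86.

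Cd14, which codes for the co-receptor, was higher at both times of LPS. Its signal was 17749, 23854, 23453 and 21046 on the 4 resting arrays, 40623 and 33174 in WT cells after 45 min of LPS, and 39674 and 49419 after 180 min. No LPS array overlapped the resting arrays. The change was 0.78 ± 0.16 at 45 min (SE; 1.72-fold, adjusted p = 0.00106) and 1.05 ± 0.16 at 180 min (2.07-fold, adjusted p = 9.54e-06), and the 2 times differed by 0.27 ± 0.18 (adjusted p = 0.376). In such bulk RNA, more or fewer cells of a type and more or less RNA per cell cannot be told apart. In the order of group means, which includes resting cells, 13 of the 15 neighbouring pairs overlapped. The means of the stimulated groups still ran from 34810, in WT cells with LPS+IL-10 for 45 min, to 64480. With LPS+IL-10, Cd14 was higher at 180 than at 45 min in the mean of the 3 genotypes (0.40 ± 0.10, adjusted p = 0.00405). The highest value, 64480, came from the single array of IL-6-/- cells with LPS for 180 min.

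Myd88, the adaptor gene, was higher than in resting cells after 180 min of LPS alone and did not pass after 45 min. Resting arrays gave 949.1, 1149.1, 1485.4 and 1428, WT cells gave 1369 and 1375.5 after 45 min of LPS, and 3211.5 and 3472.8 after 180 min. The 45 min arrays lay inside the resting range and the 180 min arrays far above it. At 45 min the change was 0.15 ± 0.16 (adjusted p = 0.583) with a 95% interval from -0.19 to 0.48, and at 180 min it was 1.40 ± 0.16 (2.64-fold, adjusted p = 2.64e-07).

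Tlr6 went the other way first. Its signal was 592.5, 375.5, 783.8 and 381.6 on resting arrays, 306.3 and 223.6 in WT cells after 45 min of LPS, and 703.1 and 597.6 after 180 min. Both 45 min arrays lay below all resting arrays, whereas the 180 min arrays lay within the resting range. The fall of 0.84 ± 0.26 at 45 min passed (adjusted p = 0.0261), but not without resting replicate 3 (0.0716), WT LPS replicate 1 (0.054) or WT LPS replicate 2 (0.246), and its adjusted p ran from 0.00693 to 0.246 over all alternatives. At 180 min the change was 0.32 ± 0.26 (adjusted p = 0.37).

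Ly86, the MD-1 gene, showed the widest change of the 5 genes. Resting arrays gave 5996.9, 4365.1, 7397.8 and 3405.1, WT cells gave 862.9 and 1077.7 after 45 min of LPS, and 429.6 and 505.9 after 180 min. None of the ranges overlapped. Ly86 fell by 2.34 ± 0.21 on the log2 scale at 45 min (ratio 0.198, adjusted p = 1.43e-08) and fell by 3.31 ± 0.21 at 180 min (ratio 0.101, adjusted p = 8.11e-12), and no alternative or left-out array ended either call.

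Cd180, the gene of the RP105 receptor that MD-1 accompanies, was scattered among the resting arrays. It gave 404.5, 299.8, 256.3 and 108.6 on resting arrays, 160.8 and 182.7 in WT cells after 45 min of LPS, and 119 and 51.2 after 180 min. The lowest resting array lay below both 45 min arrays and below 1 of the 180 min arrays. At 45 min the change was -0.42 ± 0.33 (adjusted p = 0.406), or -0.85 (adjusted p = 0.046, where 19.9% of all probe sets passed) with the replicate number as a block. No other group holds a replicate 3 or 4, so the blocked value rests on resting replicates 1 and 2 alone (404.5 and 299.8). The adjusted p ran from 0.046 to 0.695 over all alternatives. At 180 min Cd180 fell by 1.18 ± 0.33 (adjusted p = 0.00625). This call was lost without WT LPS replicate 2 (adjusted p = 0.166, against 0.000183 to 0.166 over all alternatives). Both 180 min arrays lay below the filter signal of 200, and no detection calls were used to tell them from background.

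**Figure D2:**
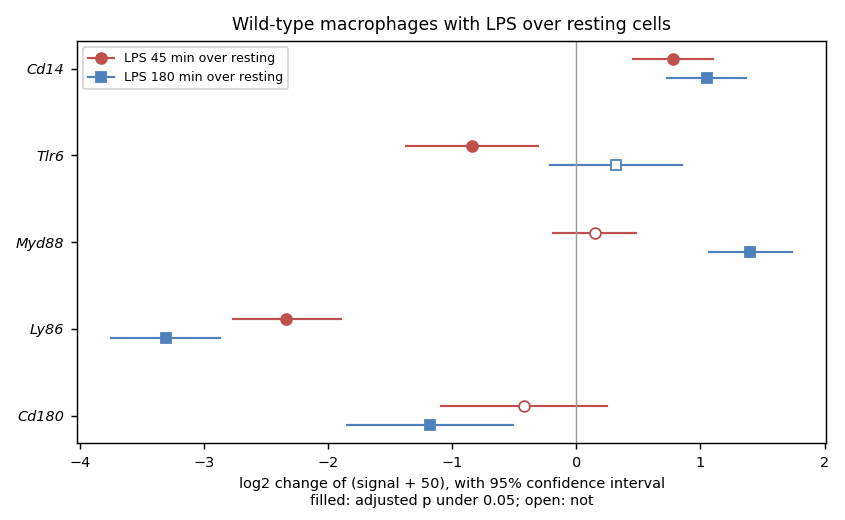
Difference of log2(signal + 50) between WT cells with LPS (n = 2) and resting cells (n = 4), with 95% confidence intervals; circles are 45 min and squares 180 min, and filled symbols passed the test. Ly86 stands lowest, at -2.34 and -3.31, Cd14 at 0.78 and 1.05, and Myd88 and Tlr6 differ in sign or size between the times.

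Markers of other cells moved with the LPS comparison. Of 12 stromal genes tested, such as collagens, 10 were higher at both times, and the summed signal of the 13 on the array was 12520 to 13280 at 45 min and 11540 to 12020 at 180 min in WT cells with LPS, against 1396 to 3954 in resting cells. The 9 neutrophil markers summed to 1078 to 1093 and 1178 to 1288 with LPS, against 1384 to 3452 in resting cells, and 3 of 7 tested were lower at each time. Of the 12 macrophage markers, which include Cd14, 1 was higher and 4 were lower at 45 min, and 2 were higher and 6 lower at 180 min. The 6 T cell markers summed to 916.1 to 1202 at 45 min and 507.1 to 633.5 at 180 min with LPS, against 487.1 to 704.3 in resting cells. Cd4, the 1 tested among them, was higher at 45 min and did not pass at 180 min. B cells also carry RP105 and MD-1. None of 5 B cell markers tested passed at either time. The 6 on the array summed to 1109 to 1194 and 1056 to 1320 with LPS, against 808.3 to 1866 in resting cells. Of 3 dendritic cell markers tested, none passed at 45 min and 1 was lower at 180 min. The part of any of these markers, B cell markers included, in the changes of the 5 genes was not tested.

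Between 45 and 180 min of LPS alone, Tlr6 and Myd88 rose and Ly86 fell in IL-10-/- cells and in WT cells. Of the 5 genes 3 passed in IL-10-/- cells, where 17.1% of all probe sets did, 2 in IL-6-/- cells (7.03%) and 3 in WT cells (13.9%). Tlr6 gave 1313.6 and 1191.1 at 180 min in IL-10-/- cells, against 368.9 and 271.4 at 45 min, a rise of 1.83 ± 0.30 (3.55-fold, adjusted p = 8.34e-05). In WT cells, with the values above, Tlr6 rose by 1.16 ± 0.30 (2.24-fold, adjusted p = 0.00852). The 2 times did not overlap in either genotype.

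In IL-6-/- cells, with 1 array a time and the spread taken from the other groups, Tlr6 gave 886.2 at 180 min and 301.4 at 45 min (1.41 ± 0.42, adjusted p = 0.0412). That call was lost without the filter (adjusted p = 0.0623) and without an intensity trend (0.0504), against a range of 0.000797 to 0.0623 over its alternatives. Myd88 in these cells gave 3057 at 180 min and 1232.8 at 45 min (1.28 ± 0.27, adjusted p = 0.00269). Cd14 gave 64480 at 180 min and 37967 at 45 min (0.76 ± 0.25, adjusted p = 0.0737), which did not pass. It passed with a filter at 500 (0.0405) and with the replicate block (0.0331, where 12.1% of all probe sets passed), against 0.0331 to 0.237 over its alternatives. None of these arrays has a second of its kind.

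Ly86 gave 938.3 and 980.5 at 180 min in IL-10-/- cells, against 2621.9 and 3273.8 at 45 min, and fell by 1.56 ± 0.25 (adjusted p = 5.6e-05). In WT cells it fell by 0.97 ± 0.25 (adjusted p = 0.00781). Myd88 gave 2450.2 and 2097.3 at 180 min in IL-10-/- cells, against 1390.5 and 1445.5 at 45 min. It rose by 0.66 ± 0.19 there (adjusted p = 0.0155) and by 1.25 ± 0.19 in WT cells (adjusted p = 2.8e-05). The difference between the genotypes in these time courses was tested directly and passed for none of the 5 genes (0 of 5, 1 at an unadjusted p under 0.05, where 1.12% of all probe sets passed). It was -0.59 ± 0.27 for Myd88 (adjusted p = 0.398), 0.66 ± 0.42 for Tlr6 (0.601) and -0.59 ± 0.35 for Ly86 (0.565).

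Several of these calls were lost when 1 array was left out, which leaves 1 array in its group. Whether the particular array or the smaller group mattered was not tested. Without WT LPS 45 min replicate 2 or WT LPS 180 min replicate 1, the WT calls were lost for Tlr6 (adjusted p = 0.104 and 0.0782; 8.46e-05 to 0.104 over all alternatives) and for Ly86 (0.0967 and 0.0782; 0.000368 to 0.0967). The Myd88 call in IL-10-/- cells was lost without 45 min replicate 1 (0.0893), 45 min replicate 2 (0.0697) or 180 min replicate 1 (0.151), against 0.00234 to 0.151 over all alternatives. The Tlr6 and Ly86 calls in IL-10-/- cells and the Myd88 calls in WT and IL-6-/- cells were lost under no alternative that could be run for them.

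With IL-10 present, the time course of the 5 genes was seen with 6 arrays a time. In the mean of the 3 genotypes all 5 genes differed between LPS+IL-10 at 180 min and at 45 min, where 32.8% of all probe sets did. Tlr6 ranged from 653.7 to 992.9 with a median of 930.8 at 180 min, against 239.8 to 391.6 with a median of 326.4 at 45 min, a rise of 1.32 ± 0.17 (adjusted p = 1.21e-06). Ly86 ranged from 547.7 to 1032.2 (median 893) at 180 min, against 912.8 to 2883.3 (median 1556) at 45 min, and fell by 0.94 ± 0.14 (adjusted p = 1e-05). The Tlr6 ranges did not overlap, while those of Ly86 did when the genotypes were pooled.

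Under the same treatment Myd88 lay between 2719.4 and 4149.4 at 180 min, against 2158.5 to 2566.2 at 45 min (0.47 ± 0.11, adjusted p = 0.00149). Cd14 lay between 44117 and 53596 at 180 min, against 31991 to 40976 at 45 min (0.40 ± 0.10, adjusted p = 0.00405). Neither gene overlapped between the times. The share of all probe sets without overlap was not counted, here or in any other comparison. Cd180 gave 60.4 to 195.2 at 180 min, against 126.5 to 243.8 at 45 min, and the times overlapped. Its fall of 0.66 ± 0.22 (adjusted p = 0.0199) was lost in WT and IL-10-/- cells alone (0.226). It was also lost without any 1 of 5 arrays: WT replicate 1 at 45 min (0.0722), WT replicate 1 at 180 min (0.0525), IL-6-/- replicate 2 at 45 min (0.0537), IL-6-/- replicate 2 at 180 min (0.0597) and IL-10-/- replicate 2 at 180 min (0.0558). Over all its alternatives the adjusted p ran from 0.0033 to 0.226. All 6 of the Cd180 values at 180 min lay below the filter signal of 200.

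At 45 min Myd88 was higher with either added cytokine, and no other of the 5 genes passed. In IL-10-/- cells Myd88 gave 2566.2 and 2295.4 with LPS+IL-10 and 1758.9 and 1791.6 with LPS+IL-6, against 1390.5 and 1445.5 with LPS alone. In IL-6-/- cells it gave 2317.5 and 2493.7 with LPS+IL-10 and 2046.7 and 1945 with LPS+IL-6, against 1232.8 on the single array with LPS alone. In WT cells it gave 2158.5 and 2350.5 with LPS+IL-10 and 2226.2 and 2499.3 with LPS+IL-6, against 1369 and 1375.5 with LPS alone. Every array with an added cytokine thus lay above every array with LPS alone.

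In the mean of the 3 genotypes Myd88 was 1.74-fold higher with IL-10 (0.80 ± 0.12, adjusted p = 0.000105), the only 1 of the 5 genes to pass where 1.03% of all probe sets did. With IL-6 it was 1.5-fold higher (0.58 ± 0.12, adjusted p = 0.0117), again the only 1 of 5, where 0.547% of all probe sets passed. The 2 comparisons share the arrays with LPS alone. The IL-10 call held under every alternative (adjusted p from 7.62e-06 to 0.00235). The IL-6 call was lost without WT LPS+IL-6 replicate 2 (0.0542) and in WT and IL-10-/- cells alone (0.0995), and its adjusted p ran from 0.000856 to 0.0995.

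Set against each other, LPS+IL-10 and LPS+IL-6 differed for Myd88 by 0.21 ± 0.11 (95% interval -0.01 to 0.44, adjusted p = 1), which did not pass. None of the 5 genes passed in that comparison, also at an unadjusted p under 0.05 (0 of 5), where 0.219% of all probe sets did. Within single genotypes, a look added after the data were seen, no Myd88 change passed. Of all probe sets 0.547%, 0.328% and 0.401% passed with IL-10 in IL-10-/-, IL-6-/- and WT cells, and 0.0365%, 0.073% and 0.219% with IL-6. With IL-10 it was 0.76 ± 0.19 in IL-10-/- cells (adjusted p = 0.0739), 0.94 ± 0.23 in IL-6-/- cells (0.108) and 0.70 ± 0.19 in WT cells (0.184). With IL-6 it was 0.31 ± 0.19 in IL-10-/- cells (adjusted p = 1), 0.67 ± 0.23 in IL-6-/- cells (1) and 0.76 ± 0.19 in WT cells (0.126). Under the replicate block all 3 values with IL-10 (0.00792, 0.0123 and 0.0212) and the WT value with IL-6 (0.0126) passed, where 1.06%, 0.669%, 0.79% and 0.717% of all probe sets did.

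**Figure D3:**
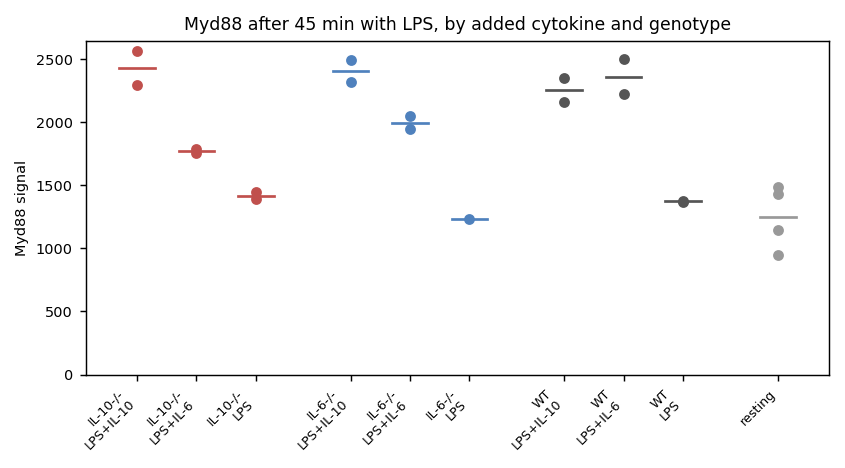
Myd88 signal after 45 min, by added cytokine and genotype, with resting cells at the right; points are arrays and bars are group means. Arrays with an added cytokine lie between 1758.9 and 2566.2, all above the arrays with LPS alone, which lie between 1232.8 and 1445.5.

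For the other 4 genes at 45 min the 95% intervals of the mean change bound what could have been missed. With IL-10 they ran from -0.30 to 0.16 for Cd14, -0.27 to 0.50 for Tlr6, -0.25 to 0.38 for Ly86 and -0.53 to 0.44 for Cd180. With IL-6 they ran from -0.32 to 0.15 for Cd14, -0.38 to 0.39 for Tlr6, -0.25 to 0.38 for Ly86 and -0.52 to 0.45 for Cd180. Cd14 had the narrowest intervals of these 4 genes and Cd180 the widest.

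At 180 min none of the 5 genes passed with added IL-10. The count was 0 of 5 in IL-10-/- cells (3.54% of all probe sets passed), in IL-6-/- cells (0.207%), in WT cells (0.134%) and in the mean of the 3 genotypes (3.82%), and it was also 0 of 5 at an unadjusted p under 0.05 in each. Myd88 gave 2747.9 and 2719.4 with LPS+IL-10, against 2450.2 and 2097.3 with LPS alone, in IL-10-/- cells. In IL-6-/- cells it gave 3905.2 and 2958.1 with LPS+IL-10, against 3057 with LPS alone. In WT cells it gave 3451.9 and 4149.4 with LPS+IL-10, against 3211.5 and 3472.8 with LPS alone. The groups overlapped in IL-6-/- and WT cells, and the mean change was 0.20 ± 0.12 (95% interval -0.04 to 0.44, adjusted p = 0.632).

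The Myd88 response to IL-10 at 180 min minus that at 45 min was -0.60 ± 0.17 (adjusted p = 0.093; 0.012 with the replicate block, where 2.59% of all probe sets passed), so a difference between the times was not established without the block. None of the 5 genes passed that comparison (0 of 5, 1 at an unadjusted p under 0.05, 1.18% of all probe sets). The other intervals at 180 min ran from -0.34 to 0.12 for Cd14, -0.42 to 0.35 for Tlr6, -0.11 to 0.52 for Ly86 and -0.46 to 0.51 for Cd180.

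For Cd180 the IL-10 values at 180 min pointed in different directions, as did the changes of Tlr6 (-0.33 in IL-10-/-, 0.07 in IL-6-/- and 0.16 in WT cells) and Cd14 (-0.09, -0.38 and 0.15 in the same order). Cd180 gave 98.1 and 69.8 with LPS+IL-10, against 123.6 and 127.7 with LPS alone, in IL-10-/- cells, and 151.6 and 195.2 with LPS+IL-10, against 119 and 51.2 with LPS alone, in WT cells. In IL-6-/- cells it gave 94 and 60.4 with LPS+IL-10, against 103.2 with LPS alone. All 11 Cd180 values at 180 min, 51.2 to 195.2, lay below the filter signal of 200. No detection calls were used to tell them from background, so these directions are uncertain. The groups, of 1 or 2 arrays each, did not overlap in any genotype, and the share of all probe sets without overlap was not counted. The response in IL-10-/- cells minus that in WT cells, -1.16 ± 0.53, did not pass (adjusted p = 0.741). None of the 5 genes passed that test of the difference (1 at an unadjusted p under 0.05, 0.559% of all probe sets). The same difference for IL-6-/- cells minus WT cells passed for none either (0 of 5, also unadjusted, 0.0122%).

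**Figure D4:**
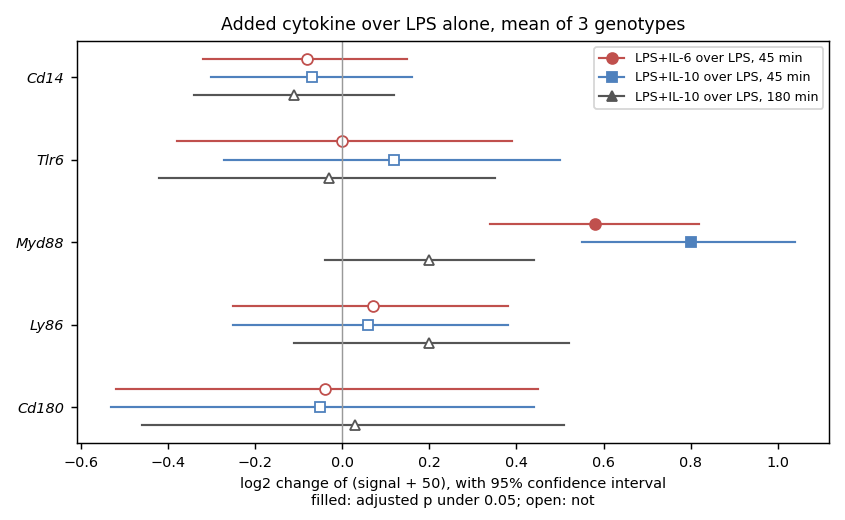
Difference of log2(signal + 50) between LPS with a cytokine and LPS alone, as the mean of 3 genotypes, with 95% confidence intervals; circles are IL-6 at 45 min, squares IL-10 at 45 min and triangles IL-10 at 180 min. Filled symbols, which passed, are those of Myd88 at 45 min (0.58 and 0.80).

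Ly86 was higher in IL-10-/- cells than in WT cells. With LPS alone for 45 min it gave 2621.9 and 3273.8 in IL-10-/- cells, against 862.9 and 1077.7 in WT cells. With LPS+IL-10 it gave 2883.3 and 2758.5 in IL-10-/- cells, against 1034.2 and 912.8 in WT cells. With LPS+IL-6 it gave 2557.3 and 2519.4 in IL-10-/- cells, against 1018.9 and 1084.7 in WT cells. All 6 IL-10-/- arrays lay above all 6 WT arrays, and the 3 treatments within a genotype lay close together.

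With LPS alone the difference was 1.55 ± 0.25 (2.94-fold, adjusted p = 0.00173), and Ly86 was the only 1 of the 5 genes to pass, where 0.377% of all probe sets did. It was lost without WT replicate 1 (0.0775) or IL-10-/- replicate 2 (0.101), with adjusted p from 2.44e-05 to 0.101 over all alternatives. In the mean of the 3 treatments, a comparison added after the data were seen, it was 1.43 ± 0.14 (2.69-fold, adjusted p = 7.44e-07; 1 of 5 genes, 1.29% of all probe sets). No alternative or left-out array ended this call. The labels do not say whether the genotypes were grown together, so genotype and culture cannot be told apart.

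At 180 min Ly86 gave 938.3 and 980.5 in IL-10-/- cells with LPS, against 429.6 and 505.9 in WT cells, a difference of 0.97 ± 0.25 (1.95-fold, adjusted p = 0.0266; 1 of 5 genes, 2.87% of all probe sets). The change of this difference between the times, -0.59 ± 0.35, did not pass (adjusted p = 0.565). The groups did not overlap, but the call was lost when any 1 of the 4 arrays was left out (adjusted p = 0.185 and 0.0978 without WT replicates 1 and 2, 0.136 and 0.19 without IL-10-/- replicates 1 and 2). It was also lost with a pseudocount of 200 (0.0555) and without an intensity trend (0.0514), and its adjusted p ran from 0.00131 to 0.19. With LPS+IL-10 at 180 min Ly86 gave 1032.2 and 1002.8 in IL-10-/- cells, against 547.7 and 673.4 in WT cells (0.70 ± 0.25, adjusted p = 0.488). None of the 5 genes passed there (2 at an unadjusted p under 0.05, 0.219% of all probe sets).

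Tlr6 and Myd88 did not pass between IL-10-/- and WT cells with LPS alone at 180 min. Tlr6 gave 1313.6 and 1191.1 in IL-10-/- cells with LPS, against 703.1 and 597.6 in WT cells (0.90 ± 0.30, adjusted p = 0.128). Myd88 gave 2450.2 and 2097.3 in IL-10-/- cells, against 3211.5 and 3472.8 in WT cells (-0.55 ± 0.19, adjusted p = 0.147). Neither gene's groups overlapped, which groups of 2 arrays can show without a difference. The share of all probe sets without overlap was not counted. With the replicate block Tlr6 (0.00392) and Myd88 (0.0313) passed too, which brought the count to 3 of 5, where 5.58% of all probe sets passed under the block.

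In IL-6-/- cells Ly86 lay between the other genotypes at 45 min. It gave 1679 and 1432 with LPS+IL-10, 1665.4 and 1541.1 with LPS+IL-6 and 1307.9 with LPS alone, all above the 6 WT arrays and below the 6 IL-10-/- arrays. The difference from WT cells in the mean of the 3 treatments was 0.55 ± 0.15 (1.47-fold, adjusted p = 0.0569) and did not pass. It passed with a filter at 500 (0.0477) and with the replicate block (0.00412, where 6.47% of all probe sets passed), and its adjusted p ran from 0.00412 to 0.155 over all alternatives. None of the 5 genes passed there (1 at an unadjusted p under 0.05, 2.25% of all probe sets). For LPS alone, IL-6-/- cells against WT cells gave 0 of 5 at 45 min (0 unadjusted, 0% of all probe sets), and 0 of 5 at 180 min (2 unadjusted, 0.182%). With LPS+IL-10 at 180 min the count was again 0 of 5 (2 unadjusted, 0.182%).

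Marker sums stood as follows beside the genotype difference of Ly86 at 45 min. The macrophage markers summed to 197800 to 258800 in IL-10-/- cells and 199600 to 221500 in IL-6-/- cells, against 189400 to 210400 in WT cells, and 3 of 12 were higher and none lower in IL-10-/- than in WT cells. The stromal markers summed to 14770 to 16480 in IL-10-/- cells and 9143 to 9701 in IL-6-/- cells, against 12180 to 13280 in WT cells, and 1 of 12 was higher in IL-10-/- cells. The B cell markers summed to 605.4 to 1224 in IL-10-/- cells, against 943 to 1368 in WT cells, and none of 5 passed. The part of macrophage, stromal and B cell markers in the Ly86 difference was not tested.

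**Figure D5:**
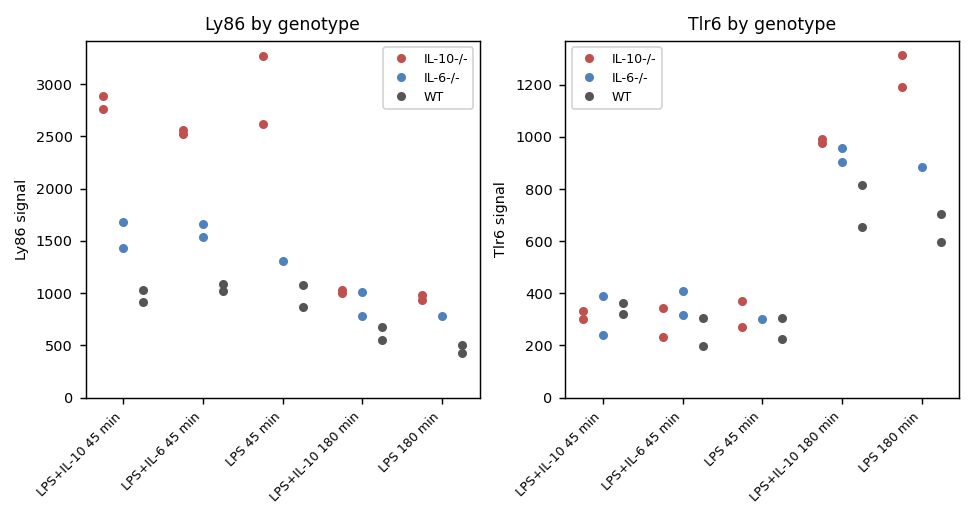
Signal of Ly86 (left) and Tlr6 (right) by treatment and time; each point is 1 array, IL-10-/- in red, IL-6-/- in blue and WT in grey. Ly86 at 45 min separates the 3 genotypes (2519.4 to 3273.8, 1307.9 to 1679 and 862.9 to 1084.7 in that order), whereas the Tlr6 genotypes overlap at 45 min.

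Over all 16 groups the genes differed in how far their group means spread. The highest mean was 11.3 times the lowest for Ly86 (5291 in resting cells, 467.8 in WT cells with LPS for 180 min) and 4.98 times for Tlr6 (1252 in IL-10-/- cells with LPS for 180 min, 251.5 in WT cells with LPS+IL-6 for 45 min). It was 3.46 times for Cd180, 3.08 times for Myd88 and 2.99 times for Cd14. Each ratio sets a gene against itself. In the order of group means, neighbours overlapped in 7 of 15 pairs for Ly86, 8 for Myd88, 11 for Tlr6, 12 for Cd180 and 13 for Cd14.

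The order itself followed time for Tlr6, whose 6 highest group means were the 6 groups at 180 min, with resting cells next and the 9 groups at 45 min below. Among the groups at 180 min neighbours from IL-10-/- LPS (1252) down to WT LPS+IL-10 (735.4) did not overlap, while WT LPS+IL-10, WT LPS and resting cells did. For Ly86 resting cells (5291 ± 1770, SD, n = 4) came first and did not overlap the next group, IL-10-/- LPS at 45 min (2948 ± 461, n = 2). All 3 IL-10-/- groups at 45 min preceded the 3 IL-6-/- groups, and these preceded the WT groups.

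The genes whose group means ran most like each member's were found by Pearson's r over the 16 group means, which share the times and treatments of the design, and are given as a description. For Tlr6 they were Slc7a2 (r = 0.964), Pstpip2 (0.96) and Mitf (0.959), and for Cd14 Tnfaip2 (0.929), Il1a (0.926) and Marcksl1 (0.921). For Myd88 they were the metallothionein gene Mt2 (0.941), Tha1 (0.934) and the acute-phase gene Saa3 (0.932). Ly86 was closest to Ckb (0.95), Aif1 (0.931) and Evl (0.925), and Cd180 to Gstz1 (0.899), Bmyc (0.89) and Usp8 (0.889).

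Of 48 further genes of Toll-like receptor signalling, 26 were named on the array and 25 were tested. After 45 min of LPS 3 were higher (9% of all probe sets), 3 lower (7.75%) and 19 did not pass in WT cells. The median change was -0.03, against 0.03 over all probe sets. Tnfaip3, which codes for the ubiquitin-editing inhibitor A20, gave 4361 to 5554.3 with LPS, against 22.4 to 303.8 in resting cells, and rose by 5.17 ± 0.53 (adjusted p = 9.65e-08). Dusp1, the gene of a MAP kinase phosphatase, rose by 4.88 ± 0.23 (adjusted p = 3.9e-14), and Peli1, which codes for a ubiquitin ligase acting on IRAK kinases, by 0.92 ± 0.18 (0.000888). Irf7, an interferon regulatory factor gene, fell by 1.98 ± 0.51 (0.00895), to 212.3 to 331.3 with LPS, against 327.3 to 4484.8 on widely scattered resting arrays.

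After 180 min of LPS 7 of the 25 were higher (14.4% of all probe sets), 6 lower (19.4%) and 12 did not pass. The median was 0.14, against -0.09 over all probe sets. Tnfaip3 rose by 6.01 ± 0.53 (adjusted p = 2.38e-09), Dusp1 by 3.44 ± 0.23 (1.35e-11), Peli1 by 3.14 ± 0.18 (1.1e-12) and Ikbke, the gene of an IKK-related kinase, by 2.12 ± 0.25 (3.15e-07).

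Added IL-10 at 180 min, in the mean of the 3 genotypes, left 1 of the 25 higher, 3 lower and 21 not passing, where 3.82% of all probe sets passed, with a median of -0.15, against -0.01 over all probe sets. Dusp1 rose by 1.45 ± 0.16 (adjusted p = 2.5e-06), with 14290 to 15550 with LPS+IL-10, against 1170.4 to 1403.6 with LPS alone, in IL-10-/- cells and 9352.2 to 11466.5 with LPS+IL-10, against 8054.3 to 8223.4 with LPS alone, in WT cells. Irf7 fell by 1.48 ± 0.37 (adjusted p = 0.018), the endosomal RNA receptor gene Tlr7 by 1.00 ± 0.26 (0.0278) and Irf5, a factor that acts with MyD88, by 0.95 ± 0.17 (0.00104). At 45 min none of the 25 passed with IL-10 (0 of 25, 3 at an unadjusted p under 0.05, 1.03% of all probe sets). The same held with IL-6 (0 of 25, 0 unadjusted, 0.547% of all probe sets).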

How the data were processed

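The values are probe set intensities that the authors deposited as a table with 1 column per array; per the submitters' processing notes they come from MAS5, whose version is not given. Trimmed means of 500.29 to 500.4 on all arrays show a common scaling, and no further scaling was applied. Signals ran from 0.2 to 86349.8. The deposited values carry no detection calls used here.

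Gene symbols came from the platform table, which gave 10855 probe sets 1 symbol and 396 several; probe sets with several were not named. A gene with several probe sets is given by the brightest. After removal of 66 control probe sets, the 8224 of the 12488 with a signal of 200 or more on at least 2 arrays were tested. A model with a mean for each of the 16 groups was fitted to log2(signal + 50) with limma 3.58.1 (R 4.3.3), with an intensity trend in eBayes, 16 residual and 7.575 prior degrees of freedom. Groups with 1 array were assumed to vary as the others. There were 23 comparisons, and 8 more were added after the data were seen. P-values are 2-sided and adjusted by Benjamini-Hochberg within a comparison. The number of arrays limits the precision. The script was tested on simulated data for LPS at 180 min against resting cells. It recovered 43.5% of 200 probe sets changed by 1 on the log2 scale and 92% of 200 changed by 2. All other simulated probe sets were unchanged, and 6 and 16 of them passed falsely. In the data 33.8% of all probe sets passed in that comparison, so the recovered shares need not hold there.

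The members, the pathway list and the marker lists were chosen with earlier results of these data known. Named genes are the members, the 3 genes with the most similar group means per member, and up to 4 pathway genes with the largest change that passed in the LPS and the IL-10 180 min comparisons. Figures were drawn with matplotlib 3.10.9 in Python 3.11.15. Alternatives were other pseudocounts and filters, quantile normalization, no trend, a replicate block, averaged probe sets, WT and IL-10-/- cells alone, and each array left out. Arrays with the same number were compared, and 2 arrays whose labels did not settle their group entered no comparison.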

Additional observations from a re-analysis of the deposited data

How the results depend on the processing

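No call of the 5 genes reversed its direction under any alternative run. Quantile normalization and a pseudocount of 10 ended or made no call. Nor did averaged probe sets, which leave the values of the 5 genes unchanged because each has 1 probe set. A pseudocount of 200, and eBayes without a trend, each took the count for IL-10-/- against WT cells with LPS at 180 min to 0 of 5. For LPS at 180 against 45 min in IL-6-/- cells the count was 1 with no filter and 1 without a trend, and 3 with a filter at 500 or the block, which add Cd14. A filter at 500, which leaves Cd180 untested, gave 1 for IL-10 at 45 min in IL-10-/- cells and 1 for IL-6-/- against WT cells over the 3 treatments. WT and IL-10-/- cells alone gave 0 for IL-6 at 45 min. Under the replicate block, comparisons with resting cells rest on resting replicates 1 and 2, as no other group holds a replicate 3 or 4. With the block the count was 3 for IL-10-/- against WT cells with LPS at 180 min. It was 1 for each of IL-10 at 45 min in IL-10-/-, IL-6-/- and WT cells, IL-6 at 45 min in WT cells, IL-6-/- against WT cells at 45 min, and the IL-10 response at 180 minus 45 min. The labels do not say that a number marks a shared animal or day, and same-numbered arrays correlated at 0.0204 to 0.441 (median 0.12; 13 of 23 pairs of groups over 0.1), so the block is no pairing given by the design. With 1 array left out, the count ran from 0 to 0 for IL-10-/- against WT cells with LPS at 180 min and from 0 to 1 at 45 min. It ran from 0 to 1 for IL-6 at 45 min in the mean, and from 1 to 3 for LPS at 180 against 45 min in WT cells. Over the 25 values called, 143 of 166 such fits kept the call and 23 lost it. The cause of these shifts was not tested, apart from the smaller number of arrays. The single arrays of IL-6-/- cells with LPS could not be left out. Of the 5 genes Cd180 has the widest intervals.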

Other observations

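A pair of arrays entered no comparison because their labels did not settle a group. The first has a title without a genotype and the time 45 min, and gave signals of 41094 for Cd14, 322.1 for Tlr6, 1400.5 for Myd88, 1572.7 for Ly86 and 191.5 for Cd180. The second is titled IL-6-/- with a time of 45 min, while its treatment protocol gives 180 min. It gave 61432 for Cd14, 731.6 for Tlr6, 4101.5 for Myd88, 594.9 for Ly86 and 120.9 for Cd180.

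Irf5 and Dusp1, of the pathway list, were the 2 of 25 genes that differed between IL-10-/- and WT cells with LPS at 180 min. Of all probe sets 2.87% passed there. Irf5 gave 2444.7 to 2470.2 in IL-10-/- cells, against 995.4 to 1214.2 in WT cells (1.13 ± 0.28, adjusted p = 0.023). Dusp1 gave 1170.4 to 1403.6 in IL-10-/- cells, against 8054.3 to 8223.4 in WT cells (-2.62 ± 0.26, adjusted p = 4.16e-07).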
